A study of Danio rerio with 30 samples.

Results

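The genes described here are the zebrafish proteasome subunit genes and their close partners in the spleen. They were chosen as all genes whose symbol begins with psma, psmb, psmc, psmd, psme, psmf or psmg, which found 59 of the 31901 genes in the table. Of these, 48 encode constitutive subunits, activators or assembly factors, 9 are immunoproteasome genes, and 2 (PSMC3IP and PSME3IP1) carry a partner's name but are not subunits. Symbols follow the table of gene names, so many appear in the capitals of the human orthologue.

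Spleens of adult AB-strain zebrafish, aged 100 days, were profiled by RNA-seq of polyadenylated RNA. As embryos and larvae the fish had been raised at 24, 28 or 32 °C, and as adults all were held at 28 °C. At each temperature 5 control fish were compared with 5 fish injected into the body cavity with 2 µl of 50 mg/ml lipopolysaccharide (LPS, a cell wall component of Gram-negative bacteria) from Pseudomonas aeruginosa and sampled 12 h later. What was given to the control fish is not stated in the labels. The 6 groups are called 24 °C, 28 °C and 32 °C control and LPS. Replicates are numbered samples of a group, and nothing in the labels says that each is a separate fish. The p-values therefore cover only the variation among these samples, part of which may be technical. Where fish are counted or compared in this text, these samples are meant.

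The proteasome is the protease that degrades proteins tagged with ubiquitin. Its barrel-shaped core is built of outer rings of alpha subunits (psma genes) and inner rings of beta subunits (psmb genes), and the beta subunits PSMB5, PSMB6 and PSMB7 carry the cutting sites. A regulatory cap of ATPases (psmc genes) and other subunits (psmd genes) binds, unfolds and feeds the substrate. In immune cells, and under interferon, newly made cores take up PSMB8, PSMB9 and PSMB10 in place of PSMB5, PSMB6 and PSMB7. The resulting immunoproteasome is known for producing peptides for MHC class I molecules, and PSME1 and PSME2 form the PA28 activator that often joins it. The zebrafish genes psmb12 and psmb13a belong to the same inducible beta group and lie beside PSMB8 and PSMB9 in the MHC class I region, a stretch of the zebrafish genome known to differ in gene content between individuals.

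Library totals ran from 14840723 to 23401031 counts, and 17841 genes passed the filter on low counts. All 48 constitutive genes passed, as did 7 of the 9 immunoproteasome genes and both partner genes, 57 in all. PSMB11 and psmb11b, relatives of a thymus subunit of mammals, did not pass, with at most 4 and 8 counts in any library. The spleen marker TLX1 was counted in 30 of 30 libraries, from 1302 to 6247 counts. Transcripts of neighbouring organs reached 42620 CPM for summed acinar pancreas markers and 3591 CPM for ovary markers in 24 °C control replicate 4, and 4397 CPM for liver markers in 32 °C control replicate 8, where marker sums are CPM of the library total without TMM scaling. In 32 °C control replicate 2, 28134 genes had a count, against 19367 to 22887 in the other 29 libraries. Levels of single genes are CPM (counts scaled to a fixed library total) after TMM scaling, and in spleen RNA a lower level per cell cannot be told apart from fewer cells of the expressing type.

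The clearest feature of the inducible genes lay in 2 control libraries. In 32 °C control replicates 2 and 8, psmb13a, PSMB8, psmb12 and PSMB9 were at or close to zero. The psmb13a gene had 1 and 0 counts in these libraries, against 246 to 2714 in the other 28. PSMB8 had 3 and 0 counts, against 248 to 3964. The psmb12 gene had 3 and 3 counts, against 154 to 2036, and PSMB9 had 40 and 38 counts, against 186 to 2187. For all 4 genes the pair of libraries lay below every other library. At these library sizes a count of 0 allows up to 3 counts, a limit for counting error only.

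The low counts followed gene order. In RefSeq's annotation of the GRCz12tu assembly, used here only for which genes are neighbours, chromosome 19 holds tapbp.1, mhc1uka, tapbp.2, mhc1uba, psmb13a, psmb8a, psmb12, psmb9a, tap2a, brd2a, hsd17b8 and col11a2 in this order. PSMB8, PSMB9, BRD2 and COL11A2 were matched to psmb8a, psmb9a, brd2a and col11a2 by symbol without the copy letter, and mhc1uka could not be matched. The gene next to PSMB9, tap2a, which encodes a subunit of the peptide transporter that serves MHC class I, had 55 and 23 counts in the pair, against 252 to 2715 elsewhere. On the other side, the MHC class I gene mhc1uba had 2628 and 2507 counts. These lay inside the range of 361 to 34591 of the other 28 libraries but below their median of 11158.5. The tapasin gene tapbp.2, whose product helps to load peptides, had 410 and 293 counts, against 105 to 793. Beyond tap2a, BRD2, which encodes a chromatin reader, had 2033 and 2441 counts, against 2205 to 4850. The low run covered 5 adjacent genes, with 2033 counts or more in the flanking genes mhc1uba and BRD2. By raw count both libraries were nevertheless below the median of the others for both flanking genes (3043 counts for BRD2), and replicate 2 had the lowest count of BRD2. These counts are not scaled for library size, and replicate 2 had a total of 15586276 counts, where totals ran up to 23401031. The order by count is therefore not an order of level. Further out, hsd17b8 had 28 and 59 counts, against 28 to 235, and COL11A2 47 and 6, against 9 to 194, so that replicate 8 was the lowest library for COL11A2. The cause of the low counts was not tested.

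**Figure D1:**
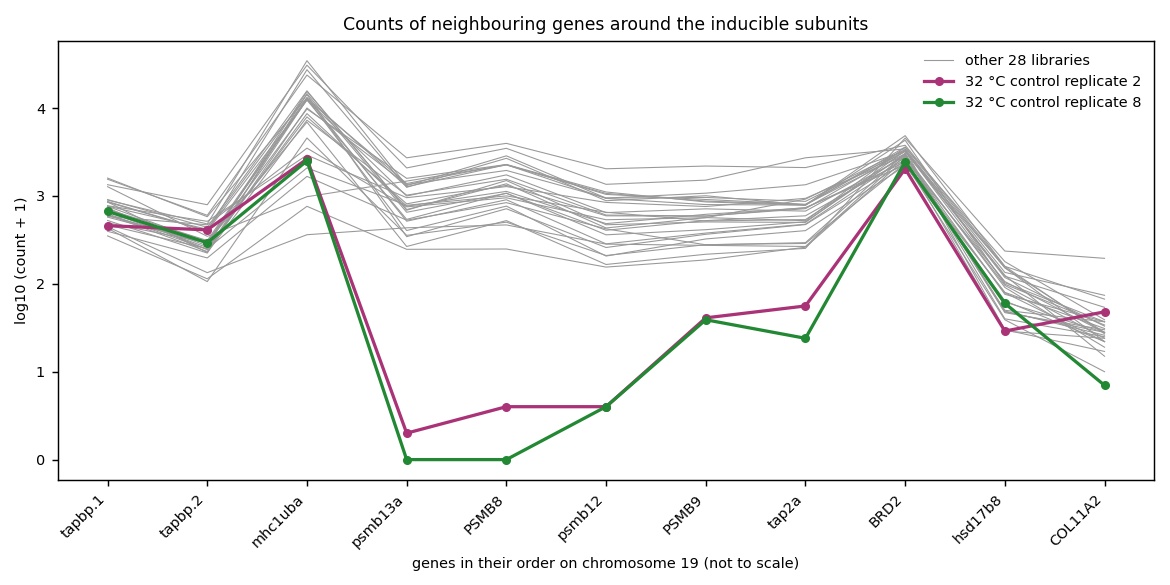
Counts in each library, as log10 (count + 1), of genes in their order on chromosome 19 (equal spacing, not to scale). In 32 °C control replicates 2 and 8 the lines drop to between 0 and 55 counts from psmb13a to tap2a and return to 2033 and 2441 counts at BRD2, while the grey lines of the other 28 libraries stay at 154 counts or more from mhc1uba to BRD2.

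The inducible genes outside this run were present in both libraries. PSMB10, which replaces PSMB7, stood at 39.9 and 50.4 CPM in replicates 2 and 8, against 66.5, 71.6 and 51.5 CPM in 32 °C control replicates 3, 6 and 10. PSME1 stood at 92.6 and 135.9 CPM and PSME2 at 131.5 and 224.7 CPM, against 118.1 to 153.4 CPM and 194.2 to 226.3 CPM in the other 3. Replicate 2 was the lowest of its group for all 3 of these genes, and replicate 8 was not the lowest for any. Both libraries also had the lowest mean of the 48 constitutive genes, 5.17 and 5.28 log2 CPM, against 5.33 to 6.24 in the other 28. Counts and fold changes of proteasome genes that involve 32 °C controls are therefore also given without this pair.

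Within the other 28 libraries the 4 neighbouring genes varied together from library to library. PSMB8 covered an 8.22-fold range of CPM, while the ratio of psmb13a, psmb12 and PSMB9 to PSMB8 covered only 2.16-fold, 2.45-fold and 2.27-fold. The library with the least PSMB8 was also the lowest for the other 3 genes in each of the 6 groups. The library with the most PSMB8 was the highest for all 4 genes in 24 °C control, 24 °C LPS and 28 °C control fish, but not in the other 3 groups. The median SD within groups was 0.72 on the log2 scale for these 4 genes without the low pair (1.89 with it). It was 0.30 for PSMB10, PSME1 and PSME2, 0.30 for the constitutive genes and 0.53 for all genes tested, each without the pair. The constitutive genes were thus measured with much less spread than the neighbouring inducible genes.

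PSMB8 was at 32.4, 41.0, 27.5, 91.8 and 43.6 CPM in the 24 °C controls and at 46.4, 59.23, 160.9, 45.5 and 57.0 CPM in the 24 °C LPS fish. It was at 58.5, 131.1, 97.9, 61.0 and 89.2 CPM in the 28 °C controls and at 79.2, 118.4, 105.2, 46.4 and 116.0 CPM in the 28 °C LPS fish. It was at 0.178, 136.0, 108.0, 0 and 52.9 CPM in the 32 °C controls and at 100.5, 47.0, 101.1, 19.6 and 29.6 CPM in the 32 °C LPS fish. Control and LPS values overlapped at every temperature, and single libraries, such as 24 °C control replicate 5 and 24 °C LPS replicate 3, stood far above the rest of their groups. PSMB9 had means of 20.9 ± 10.6, 33.7 ± 14.5 and 24.2 ± 22.6 CPM (SD, n = 5) in 24, 28 and 32 °C controls, and of 36.9 ± 29.2, 41.1 ± 8.71 and 29.5 ± 14.6 CPM in the LPS fish. The means of psmb12 were 19.9 ± 10.1, 33.0 ± 13.8 and 22.2 ± 23.7 CPM in controls and 33.1 ± 28.5, 39.0 ± 13.6 and 31.8 ± 17.1 CPM in LPS fish. Those of psmb13a were 28.4 ± 15.7, 49.9 ± 21.3 and 31.9 ± 32.3 CPM in controls and 47.0 ± 35.6, 56.3 ± 16.0 and 44.4 ± 24.0 CPM in LPS fish. For each of the 4 genes control and LPS means at the same temperature, over all 5 libraries, differed by less than the SD of the LPS fish. The 32 °C control means include the low pair, so at that temperature this is stated with the pair counted in. For PSMB8 the other 32 °C controls were at 136.0, 108.0 and 52.9 CPM. They were at 51.0, 43.2 and 22.1 CPM for PSMB9 and at 44.7, 49.3 and 16.6 CPM for psmb12. For psmb13a they were at 63.6, 65.6 and 30.1 CPM.

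**Figure D2:**
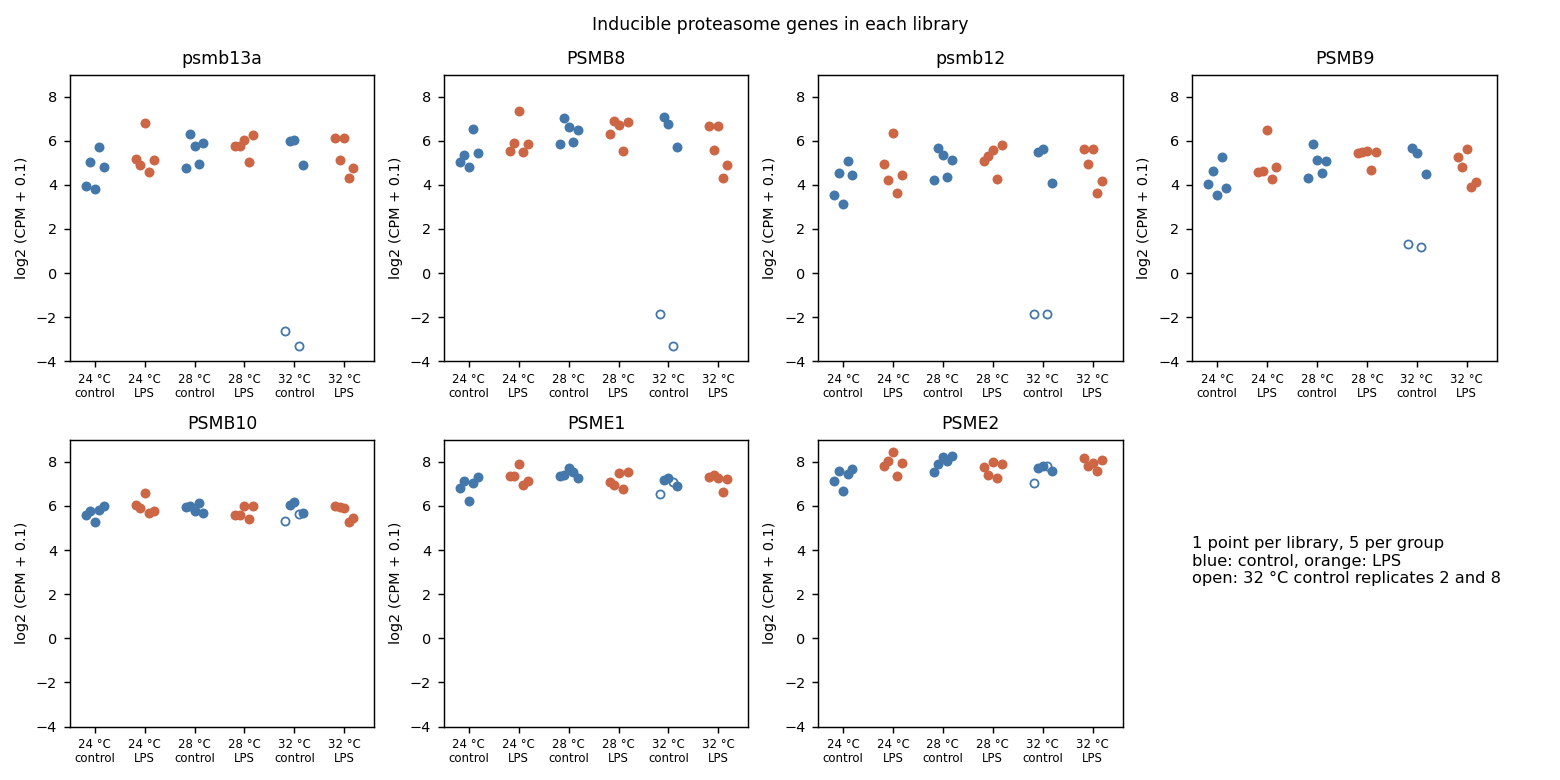
Level of the 7 tested immunoproteasome genes in each library, as log2 (CPM + 0.1), by group (blue, control; orange, LPS; open circles, 32 °C control replicates 2 and 8; 5 libraries per group). The open circles lie far below all others for psmb13a, PSMB8, psmb12 and PSMB9 and among the others for PSMB10, PSME1 and PSME2.

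The first comparison asked whether LPS changed proteasome transcripts 12 h after injection. None of the 57 tested genes passed at any temperature by edgeR's quasi-likelihood test (adjusted p under 0.05 over all 17841 genes), nor averaged over the temperatures. Calls by edgeR were rare for the whole transcriptome too, at 0.0168% of genes at 24 °C, 0.0112% at 28 °C, 0.00561% at 32 °C and 0.0112% in the average. DESeq2 and limma voom also called none of the 57 genes at any temperature. Of all genes to which it gave an adjusted p, DESeq2 called 1.66%, 0.393% and 0.11% at 24, 28 and 32 °C. The limma voom fit called 0.0112%, 0.028% and 0.00561% of all genes. At an unadjusted p under 0.05, 8 constitutive and 2 immunoproteasome genes were above control at 24 °C, where 5.64% of all genes were. At 28 °C 10 constitutive genes were below control, against 4.13% of all genes, and at 32 °C 8 were above, against 2.69%. Without the low pair none of the 48 was above control at 32 °C at that p, and edgeR called no gene of the transcriptome there.

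In the 24 °C fish the fold changes of all 7 inducible genes lay above 0, with none past the threshold. PSME2 stood at 139.0, 192.5, 103.8, 173.9 and 207.3 CPM in controls and at 222.9, 259.9, 344.8, 166.0 and 245.7 CPM in LPS fish, so that only LPS replicate 4 fell inside the control range. Its log2 fold change was 0.60 ± 0.20 (SE; edgeR adjusted p = 0.141). PSME1, its partner in PA28, had a log2 fold change of 0.44 ± 0.20 (edgeR adjusted p = 0.270). PSMB9, psmb12, psmb13a and PSMB8 had 0.82 ± 0.60, 0.73 ± 0.80, 0.73 ± 0.85 and 0.64 ± 0.88, where the SEs are as large as or near the estimates themselves. Without 24 °C LPS replicate 3 these estimates became 0.27, 0.13, 0.21 and 0.21, and without 24 °C control replicate 5 they became 1.15, 1.02, 1.08 and 1.03. The SEs of the neighbouring genes come from a fit over all 30 libraries. They therefore include the spread of the low pair, which is in neither group compared. The median SD of these genes within groups was 1.89 with the pair and 0.72 without it. Their SEs at 24 °C without the pair are not given here. PSMB10 had 0.32 ± 0.19.

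In the 28 °C fish PSME2 and PSME1 lay slightly below control, at -0.33 ± 0.20 and -0.28 ± 0.20, and PSMB10 at -0.19 ± 0.19. The neighbouring genes had fold changes of 0.09 ± 0.87 for PSMB8, 0.17 ± 0.84 for psmb13a, 0.24 ± 0.80 for psmb12 and 0.29 ± 0.59 for PSMB9. The SEs of the neighbouring genes again include the spread of the low pair, which is in neither group. In the 32 °C fish PSME2 had 0.31 ± 0.20, PSME1 0.17 ± 0.20 and PSMB10 -0.06 ± 0.19, and without the low pair 0.22, 0.06 and -0.23. There the 4 neighbouring genes had fitted values of 0.00 for PSMB8, 0.48 for psmb13a, 0.52 for psmb12 and 0.29 for PSMB9. Without the low pair all 4 lay below 0, at -0.73, -0.26, -0.21 and -0.39, so their direction at 32 °C rests on those 2 controls. Averaged over the temperatures, PSMB5, PSMA4 and PSMC1 had the smallest unadjusted p of the constitutive genes, with log2 fold changes of 0.18, 0.16 and 0.14 and edgeR adjusted p of 0.813, 0.820 and 0.814. These values were 0.10, 0.08 and 0.08 without the low pair, and 23 of 48 constitutive genes were above 0 in the average, against 38 with it. Of all genes, 45.5% were above 0 in the average without the pair and 42.1% with it.

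The constitutive genes lay on opposite sides of 0 in the 3 temperature groups, by small amounts. At 24 °C, 41 of 48 had a log2 fold change above 0, with a median of 0.18, where 40.7% of all genes were above 0 and their median was -0.12. Without 24 °C control replicate 4 and the low pair, 38 of 48 were above 0 and the median of all genes was -0.03. Without the low pair alone these were 41 and -0.11. At 28 °C only 6 of 48 were above 0, with a median of -0.30, against 51.7% and 0.02 for all genes. At 32 °C, 44 of 48 were above 0, with a median of 0.28, against 47.4% and -0.02. The 48 genes were measured in the same libraries, so such counts describe these libraries and are not independent observations. Without the low pair, 35 of 48 were above 0 at 32 °C with a median of 0.06, where 54.1% of all genes were above 0 and their median was 0.03.

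The structural parts of the particle shared this arrangement. All 10 alpha ring genes were above 0 at 24 °C, below 0 at 28 °C and above 0 at 32 °C, with medians of 0.42, -0.34 and 0.24. The 7 cap ATPases did the same, with medians of 0.26, -0.29 and 0.28, as did the 3 catalytic beta genes, with 0.12, -0.30 and 0.50. Of the 14 other cap genes, 13 were above 0 at 24 °C, 14 below at 28 °C and 14 above at 32 °C. The assembly chaperones did not share it: 3 of 6 were above 0 at 24 °C, 4 of 6 at 28 °C and 4 of 6 at 32 °C, with medians of -0.03, 0.02 and 0.06. PSME3, the 2 PSME4 genes and PSMF1, which are alternative activators and an inhibitor of the core, were also mixed, with 1, 2 and 2 of 4 above 0. At 32 °C without the low pair, 6 of 10 alpha ring genes, 6 of 7 cap ATPases, 3 of 3 catalytic beta genes, 13 of 14 other cap genes and 1 of 6 assembly chaperones were above 0. Their medians were then 0.02, 0.09, 0.26, 0.11 and -0.13.

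**Figure D3:**
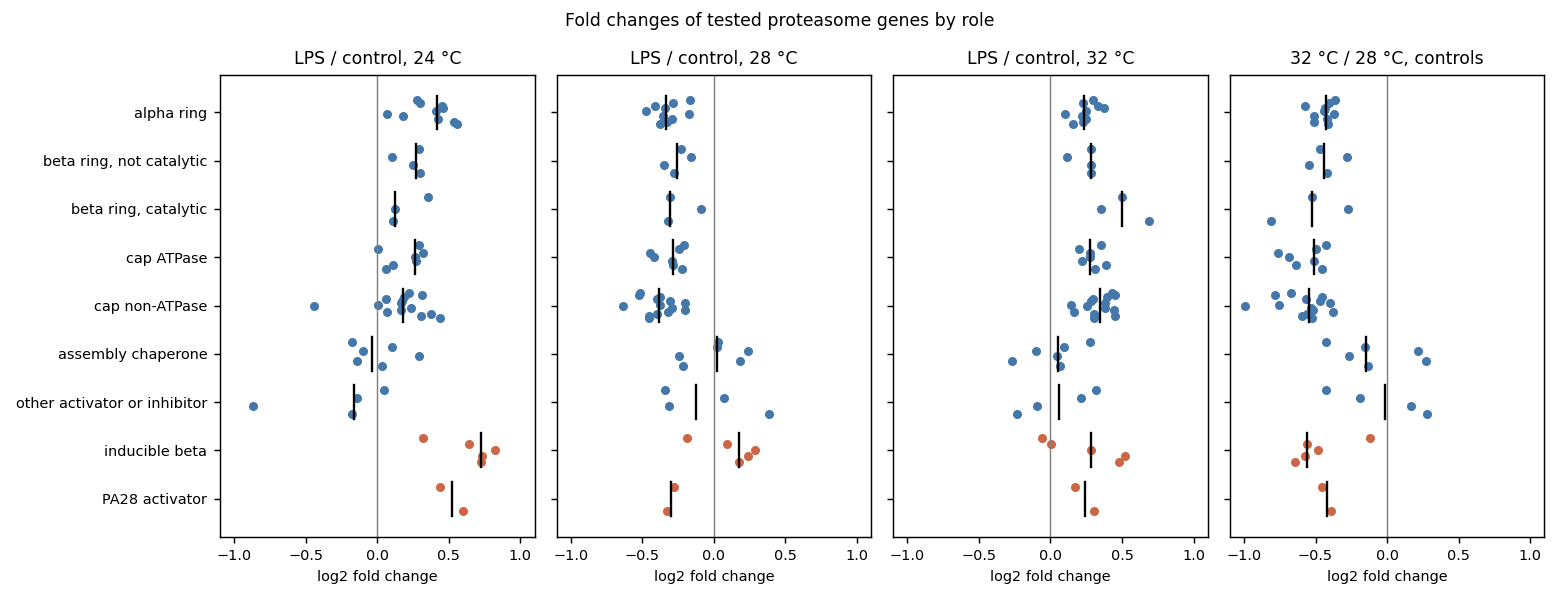
Log2 fold changes of the 48 constitutive and 7 tested immunoproteasome genes by role, for LPS against control at each temperature and for 32 °C against 28 °C controls (1 point per gene, black bar the median, blue constitutive, orange immunoproteasome; no error bars). The alpha ring points lie right of 0 at 24 °C, left at 28 °C and right at 32 °C, and the assembly chaperones lie on both sides.

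The constitutive genes with the smallest unadjusted p at 24 °C were alpha ring genes. The psma2a gene stood at 40.5, 43.7, 46.2, 51.8 and 58.4 CPM in controls and 71.1, 65.3, 94.4, 53.5 and 64.8 CPM in LPS fish, a log2 fold change of 0.54 ± 0.21 (edgeR adjusted p = 0.191). The psma6l gene had 0.56 ± 0.23 and PSMA4 0.46 ± 0.20 (edgeR adjusted p = 0.226 and 0.249). LPS replicate 4 was the lowest LPS fish for all 3 genes and fell inside the control range, as did LPS replicate 8 for psma6l and PSMA4.

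At 28 °C the same rule named cap genes. PSMD1, a large scaffold subunit of the cap, stood at 197.9, 198.5, 184.1, 202.5 and 202.2 CPM in controls and at 128.6, 168.9, 118.1, 114.7 and 158.2 CPM in LPS fish. The groups did not overlap, which held for 0.673% of all genes in this direction, and the log2 fold change was -0.52 ± 0.20 (edgeR adjusted p = 0.499). The ATPase PSMC4 had -0.42 ± 0.18 and PSMD11 (ENSDARG00000005134) -0.52 ± 0.23, with edgeR adjusted p of 0.560 and 0.567.

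At 32 °C the catalytic gene PSMB7 came first. It stood at 39.6, 47.3, 80.5, 39.5 and 45.4 CPM in controls and at 93.8, 58.4, 78.4, 57.2 and 119.0 CPM in LPS fish. Control replicate 6 lay inside the LPS range and the other 4 controls below it, and the log2 fold change was 0.69 ± 0.22 (edgeR adjusted p = 0.493). PSMB5, the catalytic gene that PSMB8 replaces, had 0.50 ± 0.17, and the ATPase PSMC6 0.39 ± 0.14 (edgeR adjusted p = 0.507 and 0.541). The fold changes were 0.50 for PSMB7, 0.26 for PSMB5 and 0.24 for PSMC6 without the low pair.

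The next question was whether the response to LPS differed between temperatures, for which the differences of the fold changes were tested. None of the 57 genes passed in any of the 3 differences by edgeR, where 0.751%, 0.112% and 0.0224% of all genes passed for 24 minus 28 °C, 32 minus 28 °C and 32 minus 24 °C. For 24 minus 28 °C, 42 of 48 constitutive genes were above 0, against 42.4% of all genes, with a median of 0.49 against -0.14, and 19 had an unadjusted p under 0.05, as did 8.23% of all genes in this direction. Without 24 °C control replicate 4 and the low pair, 44 were above 0 and the median of all genes was -0.04. In the main fit the smallest adjusted p belonged to PSME2, with a difference of 0.93 ± 0.29 (edgeR adjusted p = 0.0888). The ubiquitin receptor psmd4b followed with 0.89 ± 0.28, then PSMD7 with 0.77 ± 0.26 and psma2a with 0.87 ± 0.29 (edgeR adjusted p = 0.0931, 0.104 and 0.105). DESeq2 called 2 of the 57 genes in this difference, PSME2 (adjusted p = 0.0363) and psmd4b (adjusted p = 0.0475). It called 5.38% of all genes to which it gave an adjusted p.

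For 32 minus 28 °C, 45 of 48 constitutive genes were above 0, against 46.1% of all genes, with a median of 0.57 against -0.05, and 20 had an unadjusted p under 0.05 (4.78% of all genes). These became 43 and 6, with a median of 0.38, without the low pair, where 53.2% of all genes were above 0. Without 32 °C control replicate 6, edgeR called PSMB5, PSMB7 and PSMD11 (ENSDARG00000005134), with differences of 1.095, 1.33 and 1.34 (adjusted p = 0.0286, 0.0413 and 0.0482). The share of all genes called without that library is not given here. In the main fit PSMC6 had a difference of 0.68 ± 0.20, PSMB5 0.80 ± 0.23 and PSMD1 0.95 ± 0.29 (edgeR adjusted p = 0.190, 0.190 and 0.232), and 0.54, 0.57 and 0.70 without the low pair. For 32 minus 24 °C the constitutive genes were spread about 0, with 30 of 48 above it, against 55.8% of all genes, and a median of 0.04. The direction turned without the low pair, with 12 of 48 above 0, against 57.6% of all genes, and a median of -0.12. PSMB7, PSME4 (ENSDARG00000018742) and PSMC6 came first there, with 0.58 ± 0.31, 0.35 ± 0.23 and 0.28 ± 0.20 (edgeR adjusted p = 0.529, 0.599 and 0.634), and 0.38, 0.36 and 0.13 without the low pair. These differences share the same controls and LPS fish with each other and with the comparisons above and below.

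Among control fish the question was whether incubation temperature left a lasting difference. The cap ATPase PSMC6 was the only proteasome gene to pass in 32 °C against 28 °C controls, by an edgeR test that called 0.633% of all genes. PSMC6 stood at 93.6, 111.2, 105.0, 108.4 and 90.5 CPM in 28 °C controls and at 54.2, 62.0, 85.0, 55.3 and 70.2 CPM in 32 °C controls. Every 32 °C control was below every 28 °C control, which held for 1.15% of all genes, and the log2 fold change was -0.64 ± 0.14 (edgeR adjusted p = 0.0319). The low pair held the lowest values, 54.2 and 55.3 CPM, and without it the log2 fold change was -0.49 with an edgeR adjusted p of 0.325, so the call ended. Calls fell for the whole transcriptome too, to 0.0109% of all genes in that fit. The call of PSMC6 also ended on leaving out any of 14 single libraries. In the other groups PSMC6 averaged 86.7 ± 11.3 CPM in 24 °C controls and 93.6 ± 13.2, 83.3 ± 10.2 and 85.6 ± 12.4 CPM in 24, 28 and 32 °C LPS fish (SD, n = 5). The 32 °C controls, at 65.3 ± 12.7 CPM, had the lowest mean of the 6 groups.

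Most constitutive genes lay on the same side. In 32 °C against 28 °C controls, 44 of 48 were below 0, against 46.7% of all genes, with a median of -0.45 against 0.03, and 30 had an unadjusted p under 0.05, where 6.27% of all genes did in this direction. Without the low pair, 44 of 48 were still below 0, against 51.8% of all genes, with a median of -0.24 against -0.02. In that fit 5 had an unadjusted p under 0.05, where 3.68% of all genes did. After PSMC6 came PSMB7 with -0.81 ± 0.22, PSMC3 with -0.76 ± 0.21 and PSMC4 with -0.68 ± 0.18 (edgeR adjusted p = 0.0656, 0.0663 and 0.0671), and -0.61, -0.54 and -0.49 without the low pair. DESeq2 called 7 of the genes lower (PSMB5, PSMB7, PSMC3, PSMC4, PSMC6, PSMD1 and PSMD11 ENSDARG00000005134), where it called 3.56% of all genes to which it gave an adjusted p. The limma voom fit called PSMC6 and PSMB7, and 0.454% of all genes. Leaving out 1 library at a time gave 0 to 17 calls, the highest number without 32 °C control replicate 6. The share of all genes called in those fits is not given here. By role, all 10 alpha ring, 7 cap ATPase, 14 other cap and 3 catalytic beta genes were below 0, with and without the low pair, against 4 of 6 assembly chaperones (3 of 6 without it).

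In 24 °C against 28 °C controls none of the 57 genes passed by edgeR, where 2.47% of all genes did. That share was 0.0384% without 24 °C control replicate 4 and the low pair, and 0.0673% by limma voom. DESeq2 called PSME2 (adjusted p = 0.0307), where it called 5.07% of all genes to which it gave an adjusted p. PSME2 was also called by edgeR without 24 °C control replicate 8 (adjusted p = 0.0428), where the share of all genes called is not given here. In the main fit 39 of 48 constitutive genes were below 0, against 41.1% of all genes, with a median of -0.26 against 0.11, and 6 had no overlap between the groups in that direction (2.07% of all genes). Without 24 °C control replicate 4 and the low pair, 42 were below 0 and the median of all genes was 0.04. All 7 inducible genes were below 0 in the main fit. PSME2 had the smallest p, with -0.67 ± 0.20 (edgeR adjusted p = 0.0707), while the 4 neighbouring genes had larger differences, from -0.89 to -0.69, with edgeR adjusted p of 0.547 or more. For the neighbouring genes that test includes the spread of the low pair, which is in neither group compared. PSME2 had means of 163.3 ± 41.9, 259.4 ± 47.8 and 197.6 ± 39.1 CPM in 24, 28 and 32 °C controls, and of 247.9 ± 64.9, 206.9 ± 42.3 and 244.2 ± 37.9 CPM in the LPS fish. PSME1 followed the same order in controls, with 123.4 ± 32.1, 177.0 ± 21.7 and 129.4 ± 24.6 CPM, against 166.9 ± 44.4, 146.0 ± 33.5 and 145.6 ± 26.5 CPM in LPS fish. The 28 °C controls thus had the highest mean of both PA28 genes among the controls.

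In 32 °C against 24 °C controls none passed (0.0224% of all genes did), and 45 of 48 constitutive genes were below 0, against 56.1% of all genes. Without the low pair 22 were below 0, against 56.9% of all genes. Among LPS fish none of the 57 genes passed in any temperature comparison, nor did any other gene (0% of all genes). At an unadjusted p under 0.05, 5 constitutive genes were above 0 in 24 °C against 28 °C LPS fish (3.97% of all genes) and 2 below in 32 °C against 24 °C (1.76%).

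**Figure D4:**
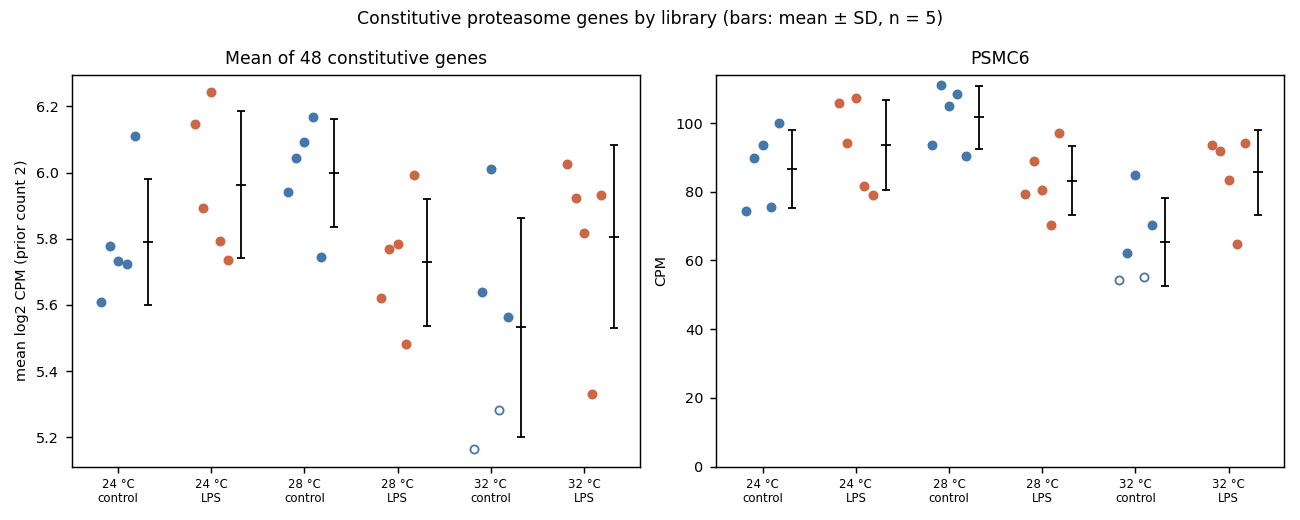
Mean log2 CPM of the 48 constitutive genes (left) and CPM of PSMC6 (right) in each library by group (blue, control; orange, LPS; open circles, 32 °C control replicates 2 and 8; black bars mean ± SD, n = 5). The open circles are the lowest values of both panels, at 5.17 and 5.28 log2 CPM and 54.2 and 55.3 CPM.

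The 3 groups with the highest constitutive level had the 3 lowest medians of the erythroid markers (globins and other red cell genes, 5 of 8 listed matched). The mean of the constitutive genes was 5.79 ± 0.19, 5.998 ± 0.16 and 5.53 ± 0.33 log2 CPM in 24, 28 and 32 °C controls, and 5.96 ± 0.22, 5.73 ± 0.19 and 5.81 ± 0.28 log2 CPM in LPS fish. Summed erythroid markers had medians of 87450, 48860 and 78650 CPM in these controls and 49950, 108600 and 67040 CPM in the LPS fish. The range was 54660 to 109700 CPM in 24 °C controls, 39830 to 75250 CPM in 28 °C controls and 38730 to 87550 CPM in 32 °C controls. In LPS fish it was 43270 to 84860, 58030 to 149600 and 40370 to 106700 CPM at 24, 28 and 32 °C. Their part in the proteasome results was not tested. Scaling the libraries without erythroid and pancreas genes left the count of constitutive genes above 0 at 41, 6 and 44 of 48 in the LPS comparisons. That setting changes only the TMM factors, so it does not test the part of red cell content.

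The exchange of catalytic subunits was followed as the log2 ratio of each inducible gene to the constitutive gene it replaces. Only differences of this ratio between groups are read, since the ratio itself depends on gene length. For PSMB10 over PSMB7 the 32 °C controls had values of 0.01, 0.49, -0.17, 0.35 and 0.18. The 28 °C controls had -0.27, -0.34, -0.87, -0.70 and -0.48, all below every 32 °C control. In the other groups, 24 °C control replicate 2 at -0.06, 24 °C LPS replicate 3 at 0.06, 28 °C LPS replicate 3 at -0.09 and 32 °C LPS replicate 2 at 0.08 lay inside the range of the 32 °C controls. The means were 0.17 ± 0.26 in 32 °C controls, -0.46 ± 0.33 in 24 °C controls, -0.53 ± 0.25 in 28 °C controls and -0.57 ± 0.54 in 32 °C LPS fish (SD, n = 5). The difference from 28 °C controls was 0.70 (exact two-sided permutation p = 0.00794, the smallest possible with 252 relabellings). From 24 °C controls it was 0.64 (exact permutation p = 0.0159), and for LPS against control at 32 °C it was -0.74 (exact permutation p = 0.0238).

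None of these passed over the 18 ratio tests, with a Benjamini-Hochberg adjusted permutation p of 0.143 for each of the 3, and the tests were added after the values had been seen. Over 18 tests, a single test at the smallest possible permutation p of 0.00794 adjusts to 0.143, so it could not pass by itself. The 3 differences without the low pair were 0.70, 0.63 and -0.74, with adjusted p of 0.321, 0.402 and 0.402. Fewer libraries allow fewer relabellings and raise the smallest possible p, so these adjusted p cannot be compared with 0.143. PSMB7 averaged 72.8 ± 18.6, 88.7 ± 18.1 and 50.4 ± 17.2 CPM in 24, 28 and 32 °C controls, and PSMB10 52.2 ± 9.65, 60.8 ± 7.54 and 56.0 ± 12.9 CPM. In LPS fish PSMB7 averaged 78.4 ± 15.1, 71.1 ± 9.18 and 81.4 ± 26.0 CPM and PSMB10 65.2 ± 17.5, 53.3 ± 10.2 and 53.7 ± 11.1 CPM.

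For PSMB8 over PSMB5 and PSMB9 over PSMB6 no test reached an unadjusted permutation p of 0.05. PSMB8 over PSMB5 had means of -1.27 ± 0.68, -0.69 ± 0.51 and -3.61 ± 4.68 in 24, 28 and 32 °C controls and -1.03 ± 0.69, -0.31 ± 0.51 and -1.41 ± 0.89 in LPS fish, and the spread of the 32 °C controls came with the low pair. PSMB9 over PSMB6 had -2.04 ± 0.84, -1.49 ± 0.71 and -2.56 ± 1.86 in controls and -1.52 ± 0.71, -1.05 ± 0.44 and -1.79 ± 0.62 in LPS fish. The constitutive partners were steadier. PSMB5 averaged 104.5 ± 10.3, 135.2 ± 13.8 and 93.9 ± 30.9 CPM in controls and 133.4 ± 14.5, 109.5 ± 9.26 and 132.5 ± 26.8 CPM in LPS fish. PSMB6 averaged 82.6 ± 31.5, 89.7 ± 15.1 and 74.4 ± 20.04 CPM in controls and 89.8 ± 16.8, 84.2 ± 12.5 and 94.8 ± 25.8 CPM in LPS fish.

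**Figure D5:**
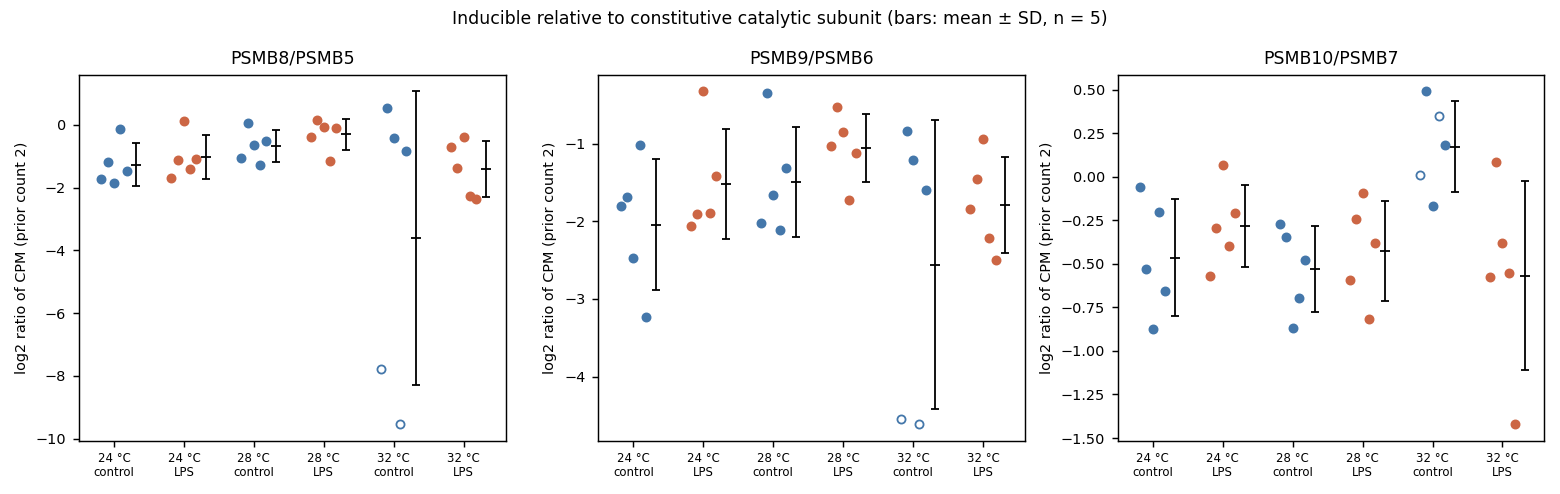
Log2 ratio of CPM (prior count 2) of each inducible catalytic gene to the constitutive gene it replaces, by library and group (blue, control; orange, LPS; open circles, 32 °C control replicates 2 and 8; black bars mean ± SD, n = 5; axes differ between panels). The 32 °C controls have the highest mean of PSMB10/PSMB7, 0.17, and span -0.17 to 0.49, where 1 library of each other group but the 28 °C controls also lies, and the open circles lie lowest for the other 2 ratios.

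Genes that work beside the proteasome gave few calls. Of 16 tested factors of proteasome assembly and association, 9 genes of the NRF1 axis that drives subunit transcription, 24 ubiquitin and first-step enzymes and 33 MHC class I processing genes, none passed in the LPS comparisons, the response differences or the control comparisons by edgeR. The cap's ubiquitin receptor ADRM1 averaged 79.5 ± 9.21 CPM in 28 °C controls and 51.6 ± 12.2 CPM in 32 °C controls, a log2 fold change of -0.62 ± 0.16 (edgeR adjusted p = 0.0580). VCP, the unfolding ATPase that hands substrates to the proteasome, had -0.66 ± 0.18 there (edgeR adjusted p = 0.0656). These were -0.42 and -0.50 without the low pair. In the response differences the smallest p values belonged to ZFAND2B, SEM1, ADRM1, TXNL1 and ECPAS among the assembly list and to nfe2l1b, MAFK, NGLY1 and nfe2l2b among the NRF1 list. Their edgeR adjusted p ran upward from 0.154 and 0.411. Among ubiquitin enzymes ube2l3b and ube2na led for 24 minus 28 °C, with differences of 0.79 ± 0.23 and 0.84 ± 0.27 (edgeR adjusted p = 0.0759 and 0.0961). Among MHC class I genes tapbpl and PDIA3 led, with 1.69 ± 0.53 and 0.97 ± 0.32 (edgeR adjusted p = 0.0925 and 0.0962).

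Of 21 tested interferon, IRF and cytokine genes that can induce the immunoproteasome, tnfb and tnfa passed. The calls were 1 in the 24 minus 28 °C response difference and 2 in 24 against 28 °C controls. Of all genes, 0.751% and 2.47% passed there by edgeR. The tnfb gene, a tumour necrosis factor, averaged 16.3 ± 6.21 CPM in 24 °C controls, 53.9 ± 31.4 CPM in 28 °C controls, 38.2 ± 6.65 CPM in 24 °C LPS fish and 22.6 ± 6.74 CPM in 28 °C LPS fish. Its response difference for 24 minus 28 °C was 2.48 ± 0.53 and its fold change in 24 against 28 °C controls -1.73 ± 0.38 (edgeR adjusted p = 0.0325 and 0.0269). The tnfa gene had a log2 fold change of -2.32 ± 0.58 in those controls (edgeR adjusted p = 0.0338). The stat2 gene, a mediator of interferon signals, had a difference of -1.47 ± 0.42 (edgeR adjusted p = 0.0695).

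PSMD2, PSMA6, PSMD11 and PSME4 each occurred under 2 gene IDs, and reads of near-identical copies may have been assigned to either. The second ID took 65.1% to 83.4% of the pair's counts for PSMD2, 48.6% to 65.8% for PSMA6, 30.6% to 49.8% for PSMD11 and 93.4% to 99.7% for PSME4. The partner genes PSMC3IP, known for a role in meiotic recombination, and PSME3IP1, which binds PSME3, did not pass in any comparison. PSMC3IP averaged 5.44 ± 5.39 CPM in 24 °C controls, and 2.56 ± 0.51 CPM in 28 °C controls. Its highest value, 15.04 CPM, was in 24 °C control replicate 4, the library with the ovary markers, and without it the 24 °C controls averaged 3.04 ± 0.57 CPM (SD, n = 4).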

How the data were processed

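The authors deposited whole-number counts per gene for 30 spleen libraries, not normalised, for 31901 Ensembl gene IDs. The submitters' processing notes name the GRCz11 build and the tools STAR, DESeq2 1.11.1, FastQC 0.11.5, cutadapt 1.12 and bcl2fastq. Per the labels' protocols, libraries were made with a directional kit. Which program counted the reads, with which annotation and strand setting, is not given in the sources used here. Reads of paralogs and of overlapping genes may therefore have been assigned to either. A table of gene names gave symbols to 29178 IDs.

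In R 4.3.3, edgeR 4.0.16 filtered genes with filterByExpr (17841 kept), scaled by TMM and fitted 6 group means over all 30 libraries (robust quasi-likelihood, 24 residual degrees of freedom). P-values were adjusted by Benjamini-Hochberg over all tested genes, with a threshold of 0.05, and adjusted p values are edgeR's unless another tool is named. The SE of a log2 fold change is its size over the root of its F statistic. The code was tested on simulated data of this size, where edgeR missed the share of large changes first required of it over all changed genes. The requirement was then restricted to genes of low dispersion, where it was met, so changes in genes of high dispersion can go uncalled. Alternatives included DESeq2 1.42.0 and limma 3.58.1. Ratios used log2 CPM with a prior count of 2.

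Members, gene lists and tests were chosen with earlier results of these data known. Named were the tested immunoproteasome genes, PSMB5, PSMB6, PSMB7, members past the threshold, the 3 constitutive genes of smallest p per LPS contrast, and pathway genes past the threshold or of smallest p. The members whose levels were added for context (PSMC3IP, PSMC3, PSMC4 and PSMB7 beside PSMC6), ADRM1, VCP and the chromosome 19 neighbours were chosen after their values were seen. All 60 pairs of libraries within groups differed beyond counting noise, with a chi-square of at least 31.8 per degree of freedom.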

Additional observations from a re-analysis of the deposited data

Results flagged for a closer look

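In 11 of 126 groups of 5 libraries examined for 21 named genes, 1 library stood apart from the other 4 by Dixon's criterion, where chance gives about 1 in 20, or 6.3. In 24 °C LPS replicate 3 the 4 neighbouring inducible genes were all high, with PSMB8 at 160.9 CPM (others 45.5 to 59.23), PSMB9 at 88.8 CPM (19.2 to 27.9), psmb12 at 82.6 CPM (12.2 to 30.2) and psmb13a at 110.2 CPM (23.9 to 36.3). PSMB8 was also high in 24 °C control replicate 5, at 91.8 CPM against 27.5 to 43.6 CPM. PSMB9 was low in 28 °C LPS replicate 4, at 25.7 CPM against 43.4 to 46.9 CPM.

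Among the other genes, PSMB7 and PSMC1 were high in 32 °C control replicate 6, at 80.5 CPM (others 39.5 to 47.3) and 103.5 CPM (49.9 to 64.0). PSMB6 was high in 24 °C control replicate 8, at 136.8 CPM against 57.8 to 78.6 CPM. PSMD1 was low in 28 °C control replicate 3, at 184.1 CPM against 197.9 to 202.5 CPM, and PSME1 in 32 °C LPS replicate 4, at 99.7 CPM against 148.9 to 166.8 CPM.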

How the results depend on the processing

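No proteasome gene was called for LPS against control at any temperature under any alternative tried. The call of PSMC6 in 32 °C against 28 °C controls was lost with no filter (log2 fold change -0.67, adjusted p = 0.0640), with only the groups compared in the fit (-0.62, adjusted p = 0.151), without 3 libraries that stood apart (24 °C control replicate 4 and 32 °C control replicates 2 and 8; -0.49, adjusted p = 0.232) and, added after seeing the data, without the last 2 (-0.49, adjusted p = 0.325). Each of these gave 0 proteasome genes called, against 1 reported, 7 with DESeq2 and 2 with limma voom. The last 3 fits called 0.633%, 3.56% (of genes with an adjusted p) and 0.454% of all genes. The 4 fits that lost the call of PSMC6 called 0.16%, 0%, 0.011% and 0.0109% of all genes, in the order given. Leaving out 1 library at a time gave 0 to 17 calls and -0.82 to -0.58 for PSMC6, which lost its call in 14 of 30: 4 without 1 of the 28 °C controls (replicates 2, 3, 5 and 7), 3 without 1 of the 32 °C controls (2, 3 and 8) and 7 without a library of another group. In 8 of the 20 fits without a library of another group, TMM took 32 °C control replicate 2 as its reference library, and these 8 held all 7 losses (adjusted p = 0.0414 to 0.0624). In the other 12 it took another reference, and PSMC6 kept its call. No fit with a fixed reference was run, so the cause of these losses was not tested, nor was that of the others. DESeq2 called 2 proteasome genes in the 24 minus 28 °C difference and 1 (PSME2) in 24 against 28 °C controls. Of all genes with an adjusted p it called 5.38% and 5.07% there. Leaving out 1 library gave 0 to 3 calls in the 32 minus 28 °C difference (PSMB5, PSMB7 and PSMD11 ENSDARG00000005134 without 32 °C control replicate 6) and 0 to 1 in 24 against 28 °C controls (PSME2 without 24 °C control replicate 8). For fits that left out 1 library, the share of all genes called is not given here.

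Without the 3 libraries, and without the 2, LPS fold changes at 32 °C turned to -0.73 and -0.73 for PSMB8, -0.26 and -0.26 for psmb13a, -0.21 and -0.21 for psmb12 and -0.39 and -0.39 for PSMB9. Leaving out 1 library gave -0.32 to 0.56 for PSMB8, -0.0093 to 0.75 for PSMB9 and -0.16 to 0.10 for PSMB10 at 32 °C, and -0.064 to 0.26 for PSMB8 and -0.0209 to 0.37 for psmb13a at 28 °C. The ratio PSMB8/PSMB5 turned from 2.19 to -1.17 and -1.17 for LPS at 32 °C, from -2.92 to 0.45 and 0.45 for 32 against 28 °C controls and from -2.33 to 0.89 and 1.03 for 32 against 24 °C controls. PSMB9/PSMB6 turned from 0.77 to -0.58 and -0.58, from -1.07 to 0.28 and 0.28 and from -0.52 to 0.72 and 0.83. Leaving out 1 library gave -0.0472 to 0.52 for PSMB8/PSMB5 with LPS at 24 °C and -0.035 to 0.17 for PSMB10/PSMB7 in 24 against 28 °C controls. For the constitutive median of the 32 minus 28 °C difference it gave 0.48 to 0.85, and for the immunoproteasome median of 24 against 28 °C LPS fish -0.73 to 0.0191.

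Replicate numbers were not taken to pair the samples. Deviations of same-numbered control and LPS libraries at a temperature correlated at r of -0.14 to 0.44, over 0.1 in 3 of 9 pairs, and those of any 2 groups at -0.17 to 0.48, over 0.1 in 17 of 51 pairs (for 28 and 32 °C controls 0.17 and 0.063). Between libraries of different numbers in any 2 groups, 67 of 324 pairs were over 0.1. Among the 5 libraries of another group, a library correlated best with its own number in 32 of 102 cases. This is a hint from the data and not the design. With the replicate number as a block, 18 proteasome genes were called in 32 against 28 °C controls, where 2.35% of all genes were. The constitutive median was then 0.59 for LPS at 32 °C, 0.89 for 32 minus 28 °C and 0.35 for 32 minus 24 °C. It was -0.78 for 32 against 28 °C controls and -0.52 for 32 against 24 °C controls. The immunoproteasome median was 0.0656 for 24 minus 28 °C, and PSMB10 turned to 0.17 for LPS at 32 °C. Replicate numbers 6 and 10 occurred only in 32 °C controls, and 7 only in 28 °C controls. The block gave each of these its own term, so those libraries did not bear on any comparison in that fit. The 32 °C controls then rested on replicates 2, 3 and 8, which include the low pair. With 5 libraries a group, no change of the neighbouring inducible genes was called, and their spread in the main fit included the low pair. The smallest change of these genes that could have been called was not computed.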
